A study of Homo sapiens with 6 samples.

Results

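Messenger RNA levels of BCL2 family proteins, caspases, inhibitor of apoptosis proteins (IAPs) and death receptor adaptors were examined in AS-tDR-007333-overexpressed and NC cells. A list of 30 gene symbols defined the set, and 29 of them matched a row among the 12154 protein-coding genes of the expression table. No row carried the symbol BCL2, so BCL2 was not analysed here. All 29 matched genes also passed the filter on low values and were among the 11042 genes tested. The series holds 6 RNA-seq libraries. There were 3 libraries of cells given AS-tDR-007333, a fragment of a glycine tRNA, and 3 libraries of cells given the negative control (NC). Sample labels describe A549 lung adenocarcinoma cells that received a tRF plasmid or an empty vector by lipofection, whereas the methods of the study describe PC9 lung adenocarcinoma cells harvested 48 h after transfection with AS-tDR-007333 or NC. Separate cultures are not mentioned in either source, so replicate spread, and every p-value built on it, may be technical only.

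Levels are in FPKM, fragments scaled for gene length and for the mapped fragments of the library. All 6 epithelial markers were listed, with KRT19 at 645 to 678 FPKM in AS-tDR-007333 libraries and 601 to 665 FPKM in NC libraries. Of 10 genes known to be high in A549 cells, 9 were listed, with sums of 1091 to 1114 FPKM in AS-tDR-007333 libraries and 1097 to 1111 FPKM in NC libraries. ALDH1A1 was the marker with no row, and CDKN2A, a gene deleted in A549 cells, was at 12.4 to 17.5 FPKM in AS-tDR-007333 libraries and 9.84 to 14.2 FPKM in NC libraries. Of the defining markers of fibroblasts, leukocytes and endothelial cells, 1 of 11 was listed, COL1A1 at 5.09 to 6.10 FPKM over all libraries. Over all genes tested, NC replicate 1 stood apart on the first principal component (score -18.0, against 9.91 and 9.44 in the other NC libraries and -1.53 to 0.61 in AS-tDR-007333 libraries).

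The fragment that the study overexpressed is shown first, because every comparison is named after it. This RNA and its control, as the study lists its oligonucleotides, are both 28 nt long and are written 5′ to 3′ in lower case. Whether the libraries came from cells given these RNAs or a plasmid and an empty vector differs between the sources and was not settled here.
Overexpressed fragment, AS-tDR-007333: gcauuggugguucagugguagaauucuu
Negative control RNA of the oligonucleotide list: gagaauuuugauggccguucuguaugug

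Apoptosis is run by caspases, proteases that are held inactive until an upstream signal assembles them. In the mitochondrial pathway, BH3-only proteins block pro-survival BCL2 proteins or activate BAX and BAK1, which open the outer mitochondrial membrane. Cytochrome c then reaches APAF1 and forms the apoptosome, where caspase-9 is activated. In the death receptor pathway, ligand-bound receptors such as FAS recruit FADD and caspase-8 or caspase-10. IAPs restrain caspases or the signals that lead to them, and DIABLO and HTRA2, released from mitochondria, counter the IAPs. Lung adenocarcinoma cells are known to lean on MCL1 and BCL2L1 for survival. In bulk RNA, fewer cells of a kind and less RNA per cell cannot be told apart.

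None of the 29 members passed the test for a difference, and most differed little between the groups. From limma, 0 of 29 members had an adjusted p under 0.05, against 0.0634% of all genes tested (7 genes). The number at an unadjusted p under 0.05 was also 0, against 3.61% of all genes tested. A Ballgown-style model without moderation called 0 members as well, with 3 (10.3%) at an unadjusted p under 0.05, beside 8.44% of all genes tested in that model. The lowest adjusted p of any member in limma was 0.9996. Log2 fold changes of FPKM + 1 lay between -0.50 and 0.28, with 12 members above 0 and 17 below. Their median was -0.02, beside -0.01 over all genes tested.

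A missed threshold does not show equal levels, so the 95% confidence interval of each difference was compared with a 1.5-fold change. For 22 of 29 members (75.9%) the whole interval lay within 1.5-fold in either direction on the scale of FPKM + 1, beside 89.4% of all genes tested. The 7 wider intervals belonged to BCL2L2, BCL2L11, PMAIP1, CASP2, CASP10, BIRC2 and FAS. The scale of FPKM + 1 understates fold changes of low genes, such as FAS and CASP2 among these 7. It also bears on low members counted within 1.5-fold. With a pseudocount of 0.1, the log2 fold change of APAF1 was -0.20, against -0.16, and that of CASP9 was 0.25, against 0.19.

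**Figure D1:**
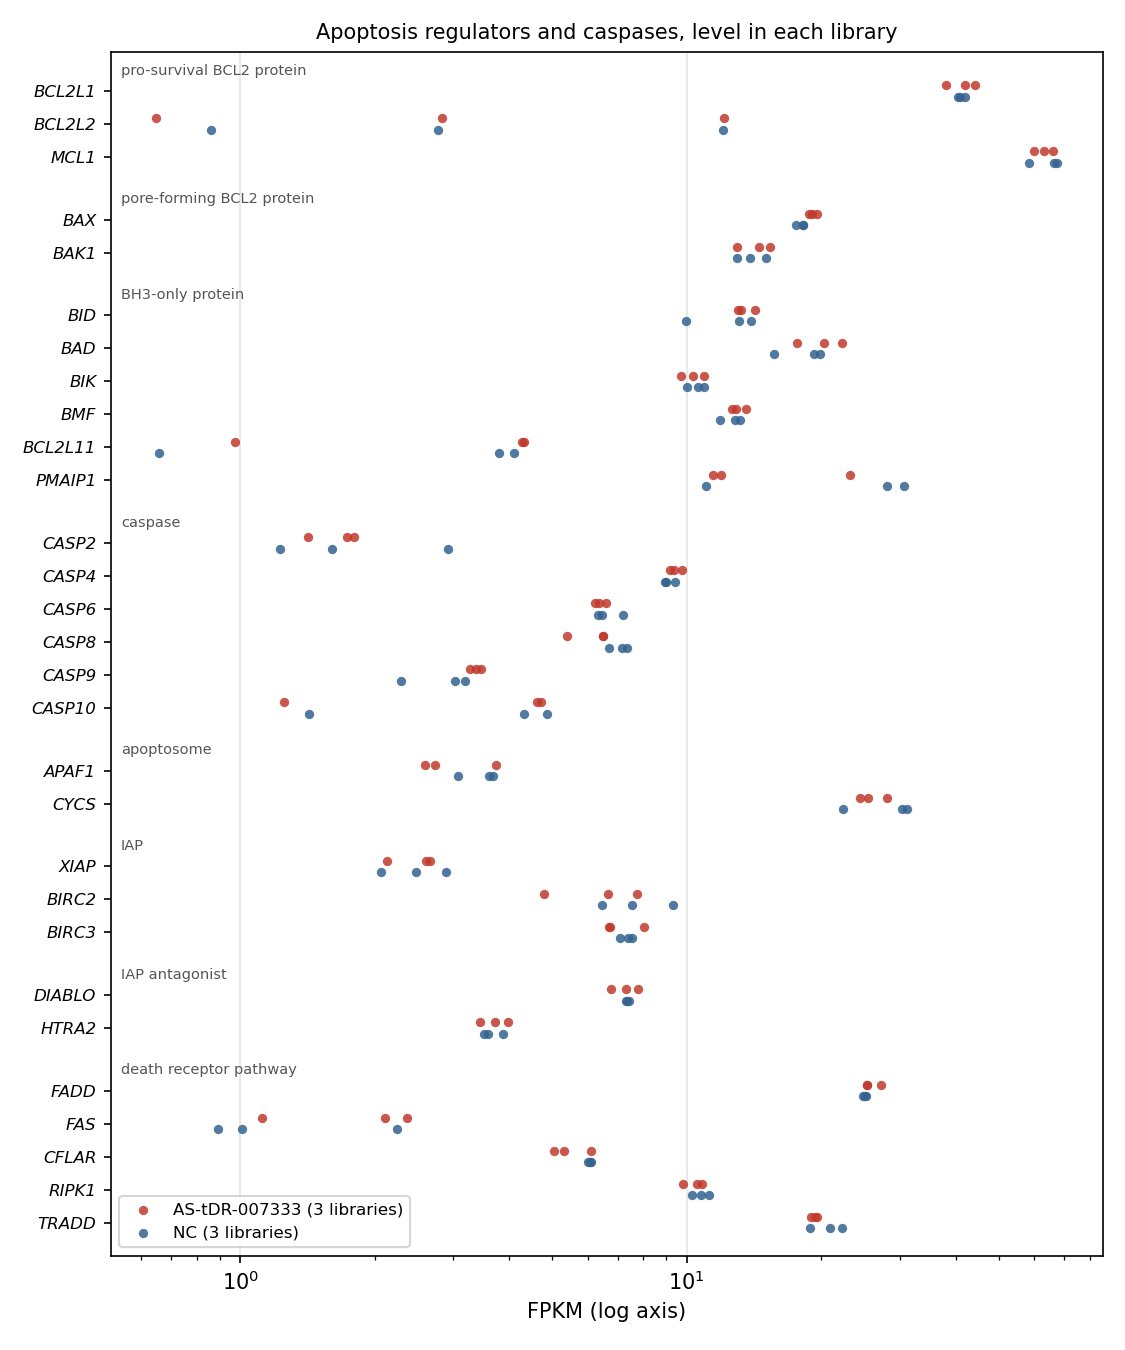
FPKM (horizontal log axis) of the 29 listed members in each library, ordered by role, with AS-tDR-007333 libraries above NC libraries for each gene. MCL1, at 58.4 to 67.6 FPKM, is the highest, and most members show tight clusters of points that overlap between groups, whereas BCL2L2, BCL2L11, PMAIP1, CASP10 and FAS are spread out within both groups.

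MCL1 and BCL2L1 were the most abundant members. MCL1, a short-lived pro-survival protein, was at 66.1, 63.0 and 59.8 FPKM in AS-tDR-007333 libraries and at 58.4, 66.4 and 67.6 FPKM in NC libraries. BCL2L1, which encodes BCL-XL, was at 41.9, 44.1 and 38.1 FPKM in AS-tDR-007333 libraries and at 41.9, 40.4 and 40.9 FPKM in NC libraries. Both genes overlapped between the groups, with ratios of group means of 0.982 for MCL1 and 1.01 for BCL2L1. Their 95% intervals on the log2 scale were -0.20 to 0.15 and -0.14 to 0.16.

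BAX and BAK1 encode the proteins that perforate the outer mitochondrial membrane. BAX (chr19:49458072-49465055 of GRCh37, plus strand) was at 19.6, 18.8 and 19.0 FPKM in AS-tDR-007333 libraries and at 18.2, 17.5 and 18.3 FPKM in NC libraries. Every AS-tDR-007333 library lay above every NC library, by a small margin. The log2 fold change was 0.08 (standard error 0.05, 95% interval -0.03 to 0.20, limma unadjusted p = 0.124 and adjusted p = 0.9996), and an exact permutation test gave p = 0.1, the smallest that 3 libraries against 3 allow (two-sided). BAK1 ranged from 13.0 to 15.3 FPKM in AS-tDR-007333 libraries and from 12.9 to 15.0 FPKM in NC libraries, which is nearly the same range.

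All 6 BH3-only genes were tested and none passed. BAD, which neutralises BCL-XL when dephosphorylated, was at 22.3, 20.3 and 17.6 FPKM in AS-tDR-007333 libraries and at 15.7, 19.2 and 19.9 FPKM in NC libraries (log2 fold change 0.13, standard error 0.12, limma adjusted p = 0.9996). For BAD it was 0.03 without NC replicate 1, 0.06 without AS-tDR-007333 replicate 1 and 0.22 without AS-tDR-007333 replicate 3. BID, the substrate that caspase-8 cleaves to link the death receptor pathway to mitochondria, was at 13.0, 14.2 and 13.3 FPKM in AS-tDR-007333 libraries and at 9.96, 13.1 and 13.9 FPKM in NC libraries (log2 fold change 0.13, standard error 0.12, limma adjusted p = 0.9996). For both genes NC replicate 1 was the lowest of the 6 libraries and the groups overlapped. BIK ranged from 9.69 to 10.9 FPKM in AS-tDR-007333 libraries and from 9.996 to 11.0 FPKM in NC libraries. BMF, a BH3-only protein linked to the cytoskeleton and to detachment from the matrix, ranged from 12.6 to 13.6 FPKM in AS-tDR-007333 libraries and from 11.9 to 13.2 FPKM in NC libraries. These 2 genes were thus among the steadiest of the set. BCL2L11 and PMAIP1, which were not steady, are described with the separated levels below.

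**Figure D2:**
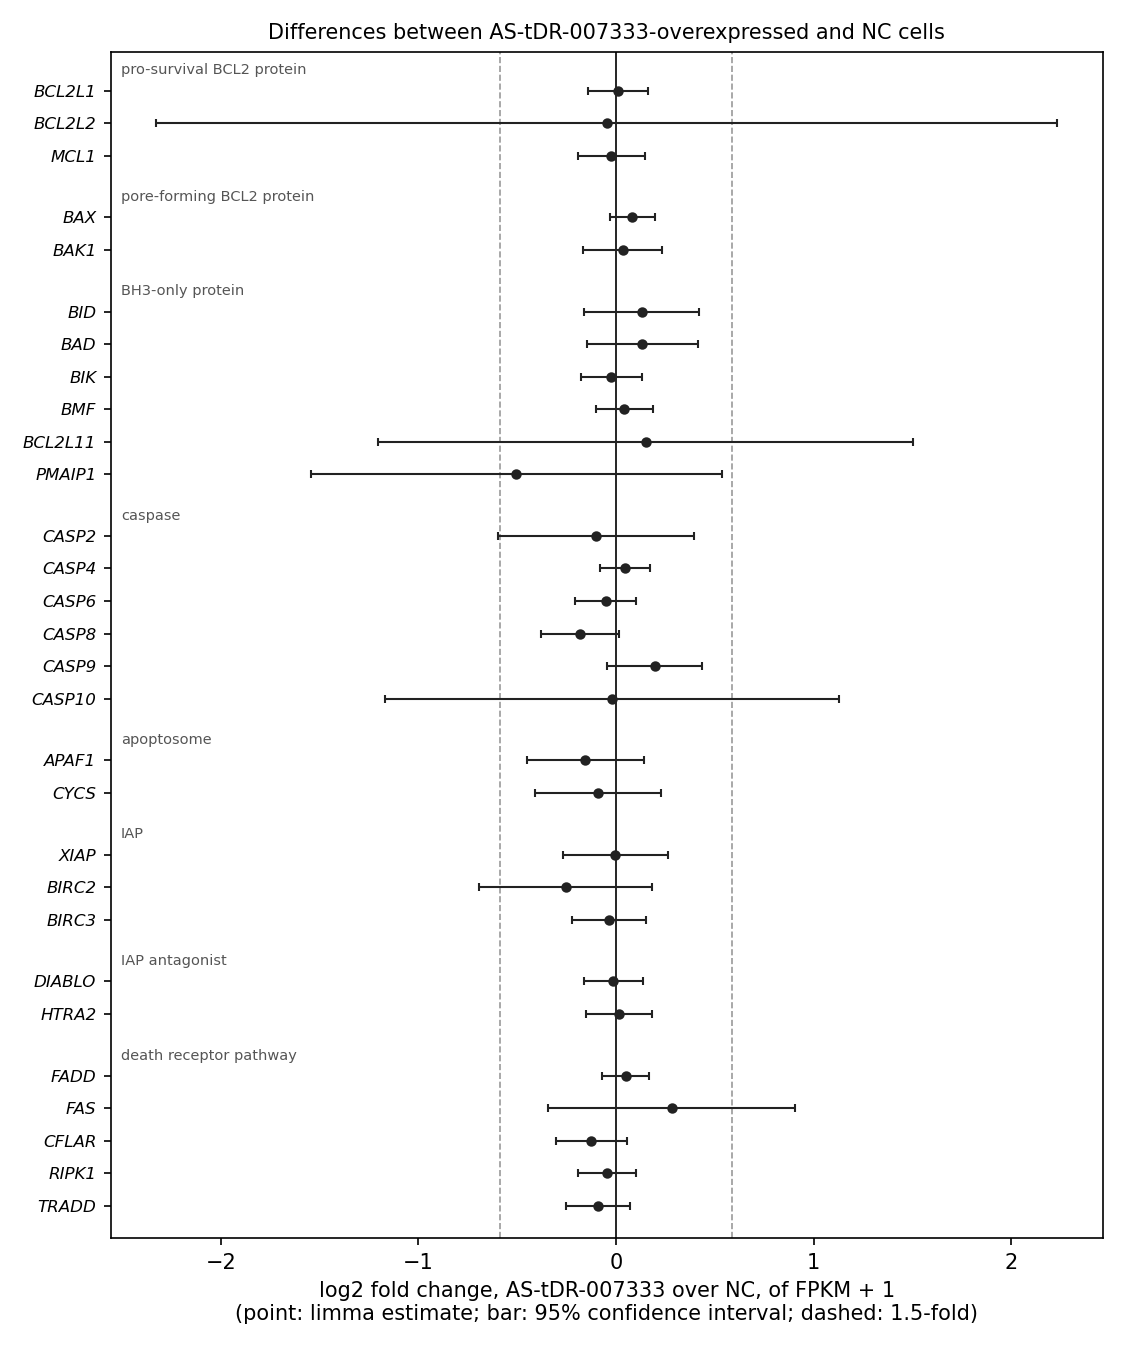
Log2 fold change of FPKM + 1, AS-tDR-007333 over NC (horizontal axis), for the 29 listed members, with points for limma estimates, bars for 95% confidence intervals and dashed lines at a 1.5-fold change. All intervals cross 0, and 22 of 29 lie between the dashed lines.

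Among caspases, CASP8 and CASP9 had the smallest p-values of all members, in opposite directions, and neither passed. CASP8 (chr2:202098166-202152434, plus strand), the initiator of the death receptor pathway, was at 6.48, 5.38 and 6.51 FPKM in AS-tDR-007333 libraries and at 7.16, 7.35 and 6.70 FPKM in NC libraries. Each AS-tDR-007333 library lay below each NC library. The ratio of means was 0.866 and the log2 fold change -0.18 (standard error 0.08, 95% interval -0.38 to 0.02, limma unadjusted p = 0.0652 and adjusted p = 0.9996). Without AS-tDR-007333 replicate 2, the lowest library, it was -0.11 (limma unadjusted p = 0.184 and adjusted p = 0.9991). CASP9 (chr1:15817327-15853029, minus strand), the initiator at the apoptosome, was at 3.38, 3.46 and 3.27 FPKM in AS-tDR-007333 libraries and at 2.30, 3.19 and 3.03 FPKM in NC libraries. Here each AS-tDR-007333 library lay above each NC library, with NC replicate 1 well below the other NC libraries. The log2 fold change was 0.19 (standard error 0.10, 95% interval -0.05 to 0.44, limma unadjusted p = 0.0971 and adjusted p = 0.9996).

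CASP4, CASP6 and CASP2 overlapped between groups. CASP4, an inflammatory caspase that senses cytosolic lipopolysaccharide, ranged from 9.19 to 9.74 FPKM in AS-tDR-007333 libraries and from 8.92 to 9.40 FPKM in NC libraries, the narrowest spread of the 29 members (highest over lowest library 1.09). CASP6, an executioner caspase, ranged from 6.22 to 6.60 FPKM in AS-tDR-007333 libraries and from 6.33 to 7.21 FPKM in NC libraries. CASP2, the caspase of the PIDDosome, was low throughout, at 1.74, 1.42 and 1.79 FPKM in AS-tDR-007333 libraries and at 2.92, 1.61 and 1.23 FPKM in NC libraries. Its NC libraries alone spanned the whole range of the gene.

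Groups did not overlap for 4 of 29 members (13.8%), beside 8.76% of all genes tested. Of these, BAX, CASP9 and FADD (3 members) lay above NC in AS-tDR-007333-overexpressed cells, beside 3.58% of all genes tested, and CASP8 (1 member) lay below, beside 5.18%. Groups of 3 libraries that do not overlap always give the smallest exact permutation p that the design allows, 0.1. This p therefore adds nothing for the 4 members. With 3 libraries against 2, groups fail to overlap more often over all genes. Without NC replicate 1 the number was 8 (27.6%), beside 25.6% of all genes tested, and without AS-tDR-007333 replicate 3 it was 7 (24.1%), beside 18.0%.

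**Figure D3:**
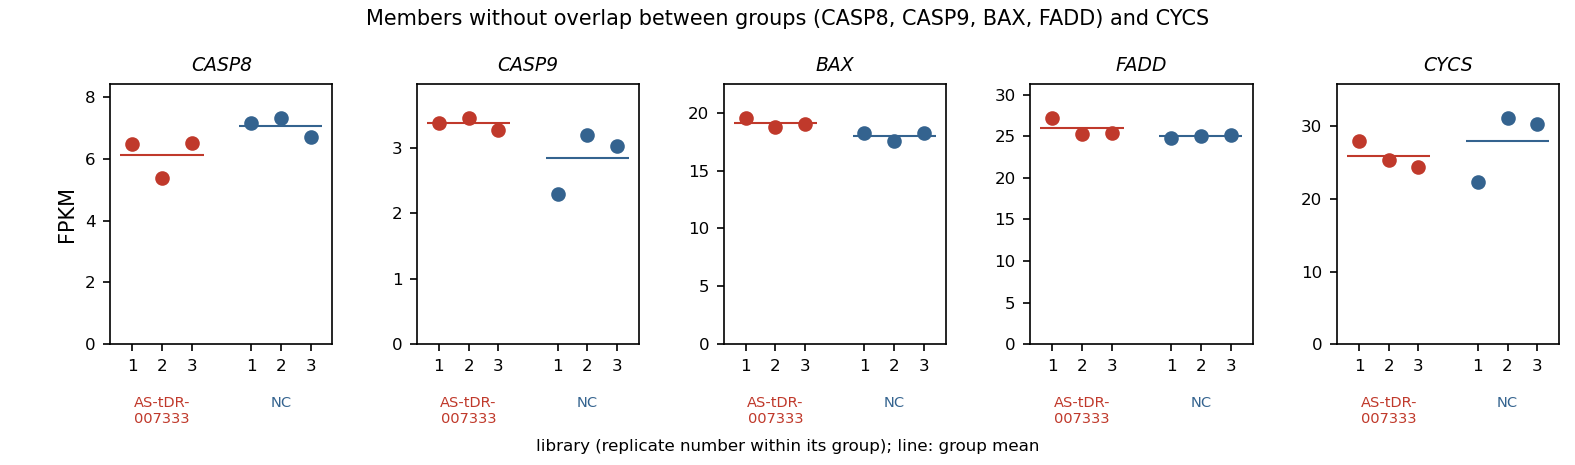
FPKM (vertical axis, from 0) in each AS-tDR-007333 library (left) and each NC library (right) of CASP8, CASP9, BAX, FADD and CYCS, with lines at group means. CASP8 lies below and CASP9, BAX and FADD above every NC library (ratios of group means 0.866, 1.19, 1.06 and 1.04), whereas CYCS overlaps because NC replicate 1, at 22.3 FPKM, is lower than all AS-tDR-007333 libraries.

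Of the apoptosome genes, CYCS was far more abundant than APAF1. CYCS, which encodes cytochrome c and has processed pseudogenes that can share its reads, was at 28.0, 25.4 and 24.4 FPKM in AS-tDR-007333 libraries and at 22.3, 31.2 and 30.3 FPKM in NC libraries. The groups overlapped only through NC replicate 1. Its log2 fold change was -0.09 (standard error 0.13, 95% interval -0.41 to 0.23, limma unadjusted p = 0.519 and adjusted p = 0.9996). APAF1, the scaffold of the apoptosome, was at 2.73, 3.75 and 2.60 FPKM in AS-tDR-007333 libraries and at 3.07, 3.68 and 3.62 FPKM in NC libraries (log2 fold change -0.16, standard error 0.12, limma adjusted p = 0.9996). It was -0.28 without AS-tDR-007333 replicate 2 (limma unadjusted p = 0.0237 and adjusted p = 0.9991) and -0.08 without AS-tDR-007333 replicate 3.

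The IAP genes were all expressed at low to moderate levels. BIRC2, which encodes the ubiquitin ligase cIAP1, was at 7.75, 6.65 and 4.78 FPKM in AS-tDR-007333 libraries and at 6.45, 9.33 and 7.54 FPKM in NC libraries. Its log2 fold change was -0.25, with a standard error of 0.18 and a limma adjusted p of 0.9996, and the groups overlapped. It was -0.09 without AS-tDR-007333 replicate 3, -0.13 without NC replicate 2, -0.39 without AS-tDR-007333 replicate 1 and -0.50 in the Ballgown-style model. BIRC3 (cIAP2) lies 7807 bp upstream on the same strand of chromosome 11 and ranged from 6.71 to 8.004 FPKM in AS-tDR-007333 libraries and from 7.07 to 7.53 FPKM in NC libraries. The highest library of BIRC3, AS-tDR-007333 replicate 3, was the lowest of BIRC2. XIAP, the IAP that binds and inhibits caspases directly, ranged from 2.13 to 2.66 FPKM in AS-tDR-007333 libraries and from 2.07 to 2.89 FPKM in NC libraries.

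Both IAP antagonists had nearly equal group means, with ratios of 0.991 for DIABLO and 1.01 for HTRA2. DIABLO (SMAC) ranged from 6.77 to 7.78 FPKM in AS-tDR-007333 libraries and from 7.30 to 7.43 FPKM in NC libraries. In GENCODE release 44 on GRCh37, 2 other coding genes share exon bases with DIABLO on its strand (2192 and 1139 of 6960 bases), so its reads may not be its own alone. HTRA2, a mitochondrial serine protease, ranged from 3.44 to 3.98 FPKM in AS-tDR-007333 libraries and from 3.51 to 3.89 FPKM in NC libraries.

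In the death receptor pathway, the adaptors FADD and TRADD were far more abundant than FAS, the only receptor of the list. Receptors outside the list were not compared with them. FADD, the adaptor that carries caspase-8 to the receptor, was at 27.2, 25.3 and 25.4 FPKM in AS-tDR-007333 libraries and at 24.8, 25.1 and 25.2 FPKM in NC libraries. The groups did not overlap, yet the nearest values, 25.3 and 25.2 FPKM, nearly touched. TRADD, the adaptor of TNF receptor 1, was at 19.5, 19.3 and 19.0 FPKM in AS-tDR-007333 libraries and at 22.2, 18.9 and 20.9 FPKM in NC libraries (log2 fold change -0.09, standard error 0.07, limma adjusted p = 0.9996). For TRADD it was -0.15 without NC replicate 2 (limma unadjusted p = 0.0432 and adjusted p = 0.9999) and -0.04 without NC replicate 1. RIPK1, the kinase that joins TNF receptor 1 signalling to survival or necroptosis, ranged from 9.82 to 10.8 FPKM in AS-tDR-007333 libraries and from 10.3 to 11.2 FPKM in NC libraries. None of these 3 passed the test.

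CFLAR, CASP10 and CASP8 lie side by side on the plus strand of chromosome 2, with 6193 bp between CFLAR and CASP10 and 4036 bp between CASP10 and CASP8. CFLAR (chr2:201980827-202041410) encodes c-FLIP, a caspase-8 homologue without protease activity that competes for FADD. It was at 5.03, 5.32 and 6.11 FPKM in AS-tDR-007333 libraries and at 6.01, 6.09 and 6.07 FPKM in NC libraries. The 3 NC values were almost equal (6.06 ± 0.0416 FPKM, SD, n = 3), and AS-tDR-007333 replicates 1 and 2 lay below them while replicate 3 lay above. The log2 fold change was -0.13 (standard error 0.07, 95% interval -0.30 to 0.05, limma unadjusted p = 0.14 and adjusted p = 0.9996). Without AS-tDR-007333 replicate 3 it was -0.19 (limma unadjusted p = 0.0252 and adjusted p = 0.9999), and without AS-tDR-007333 replicate 1 it was -0.07. Thus both CFLAR and CASP8 had a negative estimate that did not pass, whereas CASP10 between them followed another pattern.

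CASP10 (chr2:202047604-202094129), a caspase-8 homologue of the death receptor pathway, lay on 2 levels that did not follow the groups. It was at 4.72, 1.26 and 4.62 FPKM in AS-tDR-007333 libraries and at 4.86, 4.32 and 1.43 FPKM in NC libraries. AS-tDR-007333 replicate 2 and NC replicate 3 formed the lower level and the other 4 libraries the upper one, with a 3.03-fold gap between the nearest values. Group means were almost the same, 3.53 ± 1.97 FPKM in AS-tDR-007333-overexpressed cells and 3.54 ± 1.85 FPKM in NC cells (SD, n = 3 each). The log2 fold change of -0.02 had a standard error of 0.48 and a 95% interval of -1.17 to 1.13 (limma adjusted p = 0.9996), an interval that reaches past a 2-fold difference in both directions. The neighbours CFLAR and CASP8 showed no such split, although AS-tDR-007333 replicate 2 was also the lowest library of CASP8.

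A gene was taken to lie on 2 separated levels when each level held 2 or more libraries, when the nearest values of FPKM + 1 differed 1.5-fold or more, and when that gap on the log2 scale was 3 or more times the larger range within a level. CASP10 and BCL2L11 met this definition, 2 of 29 members (6.9%), beside 1.39% of all genes tested. CASP10 was proposed for this pattern, so the count is a description. BCL2L11 (chr2:111876955-111926024, plus strand) encodes BIM, a BH3-only protein that binds all pro-survival BCL2 proteins. It was at 0.975, 4.32 and 4.27 FPKM in AS-tDR-007333 libraries and at 0.659, 3.79 and 4.11 FPKM in NC libraries. The lower level held 1 library of each group, both with replicate number 1, and lay 3.89-fold below the upper one at the nearest values. The log2 fold change was 0.15 (standard error 0.56, 95% interval -1.21 to 1.503, limma adjusted p = 0.9996).

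PMAIP1, BCL2L2 and FAS were also spread over separated values, of which BCL2L2 and FAS were chosen for description after their values were seen. PMAIP1 (chr18:57567180-57571538, plus strand) encodes NOXA, which binds MCL1. It was at 23.2, 11.9 and 11.4 FPKM in AS-tDR-007333 libraries and at 11.0, 30.7 and 28.0 FPKM in NC libraries. A group of 3 libraries at 11.0 to 11.9 FPKM and a group of 3 at 23.2 to 30.7 FPKM each held libraries of both kinds. The log2 fold change of PMAIP1 was the most negative of the members, -0.50, but with a standard error of 0.43 and a 95% interval of -1.54 to 0.53 (limma unadjusted p = 0.283 and adjusted p = 0.9996).

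BCL2L2 (chr14:23767999-23780968, plus strand), which encodes the pro-survival protein BCL-W, had the widest spread of the 29 members. It was at 0.648, 2.83 and 12.1 FPKM in AS-tDR-007333 libraries and at 12.1, 0.859 and 2.77 FPKM in NC libraries. The values formed 3 pairs, each of 1 AS-tDR-007333 and 1 NC library, and the highest was 18.7-fold above the lowest. Group means were again close, 5.20 ± 6.10 FPKM in AS-tDR-007333-overexpressed cells and 5.23 ± 5.99 FPKM in NC cells (SD, n = 3 each; log2 fold change -0.05, standard error 0.95, limma adjusted p = 0.9996). BCL2L2-PABPN1, a readthrough gene that joins BCL2L2 to its neighbour PABPN1, shares 815 of the 4840 annotated exon bases of BCL2L2 (16.8%). It was at 3.59, 2.18 and 3.26 FPKM in AS-tDR-007333 libraries and at 3.24, 1.24 and 4.35 FPKM in NC libraries, and did not show the 3 pairs of BCL2L2. How reads were divided between these genes was not tested.

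FAS (chr10:90750339-90775542, plus strand), the receptor of FAS ligand, was the lowest of the 29 members. It was at 1.12, 2.36 and 2.11 FPKM in AS-tDR-007333 libraries and at 0.891, 1.01 and 2.25 FPKM in NC libraries. Both groups held values near 1 and values above 2, with AS-tDR-007333 replicate 1 and NC replicates 1 and 2 on the lower side. Its log2 fold change of 0.28 was the most positive of the members (standard error 0.26, 95% interval -0.34 to 0.91, limma unadjusted p = 0.319 and adjusted p = 0.9996). Leaving out each library in turn gave 0.14 (without NC replicate 1) to 0.53 (without NC replicate 3, limma unadjusted p = 0.0491 and adjusted p = 0.9974).

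The sets of low libraries were different for each of CASP10, BCL2L11, PMAIP1, BCL2L2 and FAS, and no library was low for all 5. Levels of single transcripts were not analysed here.

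**Figure D4:**
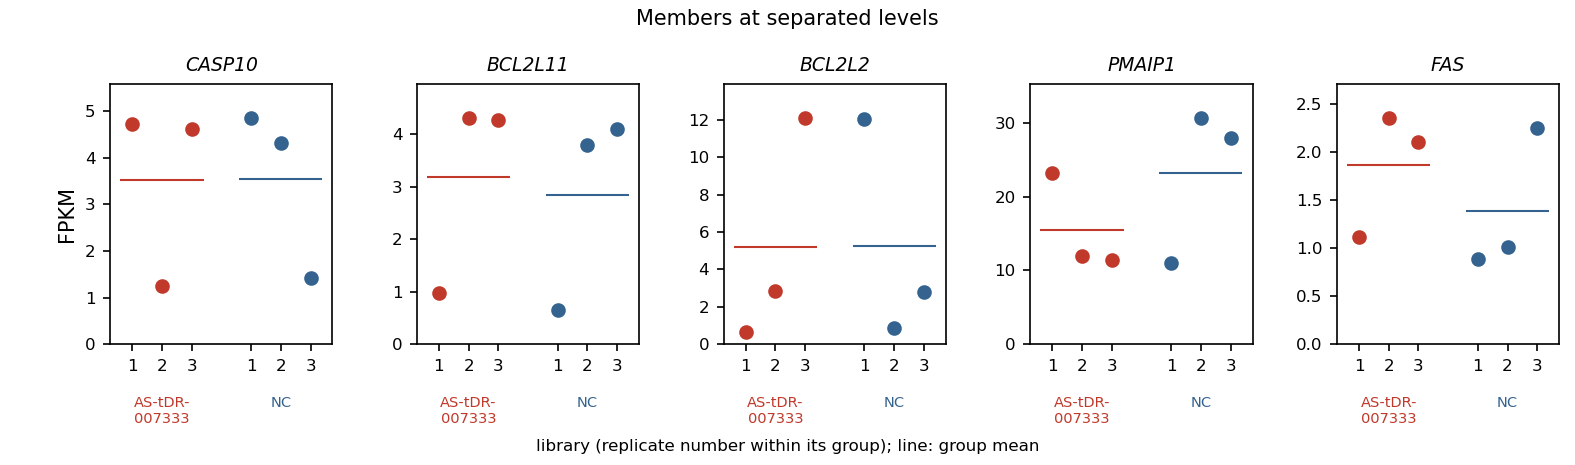
FPKM (vertical axis, from 0) in each AS-tDR-007333 library (left) and each NC library (right) of CASP10, BCL2L11, BCL2L2, PMAIP1 and FAS, with lines at group means. Low and high libraries occur in both groups for every gene, and the group means of CASP10 (3.53 and 3.54 FPKM) and BCL2L2 (5.20 and 5.23 FPKM) fall between the points.

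Spread over the libraries was also set beside that of all genes. The ratio of the highest to the lowest library had a median of 1.21 over the 29 members, beside 1.25 over all genes tested. It was at least 2 for 6 of 29 members (CASP2 besides the genes at separated values), a larger share than the 7.80% of all genes tested. CASP10, which was proposed for its separated levels, is among the 6, so this count is a description. The ratio was under 1.5 for 21 of 29 members, a smaller share than the 80.0% of all genes tested.

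**Figure D5:**
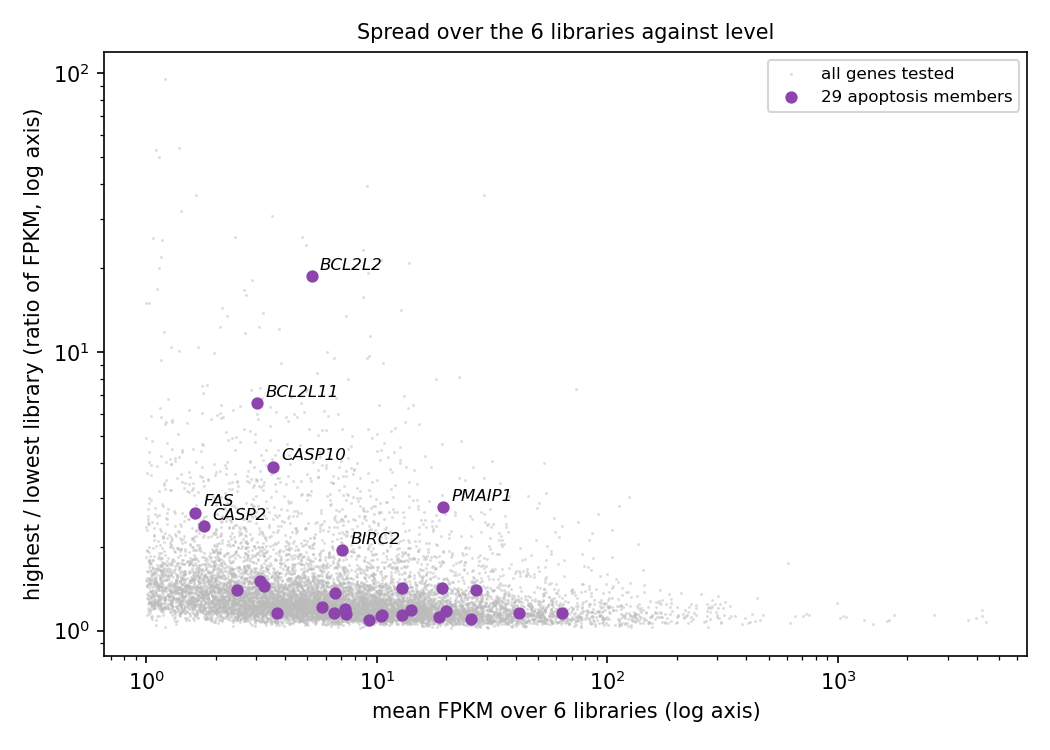
Ratio of the highest to the lowest library (vertical log axis) against mean FPKM over the 6 libraries (horizontal log axis) for the 29 members and all genes tested, without 16 genes whose ratio exceeded 100 or that were listed at 0 in a library. The median ratio is 1.21 for members and 1.25 for all genes tested, and BCL2L2 (18.7), BCL2L11 (6.56), CASP10 (3.87), PMAIP1 (2.78), FAS (2.65) and CASP2 (2.37) lie above 2.

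NC replicate 1, the library that stood apart over all genes, was the lowest of the 6 libraries for 10 members, beside 19.2% of all genes tested, and the highest for 3 members, beside 26.4%. The 10 members were MCL1, BID, BAD, BCL2L11, PMAIP1, CASP9, CYCS, XIAP, FADD and FAS. Without this library, the log2 fold change of PMAIP1 was -0.95 (standard error 0.31, limma unadjusted p = 0.0269 and adjusted p = 0.722). Leaving out each of the other libraries in turn gave -0.82 to -0.25 for PMAIP1, the smallest change without NC replicate 2 (limma unadjusted p = 0.611 and adjusted p = 0.9999). For CYCS the estimate without NC replicate 1 was -0.24 (standard error 0.07, limma unadjusted p = 0.0162 and adjusted p = 0.722), against -0.09 with all libraries. The CASP9 estimate, by contrast, was 0.09 without NC replicate 1, against 0.19 with all libraries. Without NC replicate 2 the CASP9 estimate was 0.26 (limma unadjusted p = 0.0485 and adjusted p = 0.9999). In the Ballgown-style model, which holds a covariate computed from the lower values of each library, the 3 members at an unadjusted p under 0.05 were PMAIP1 (-1.23), CYCS (-0.31) and MCL1 (-0.13, against -0.02 in limma), with adjusted p from 0.399 to 0.473. The part of NC replicate 1 in these values was measured only by leaving it out.

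Among the other genes of the pathway that were tested, none passed either. Of 48 further symbols, which included caspases, BCL2 relatives, death receptors, IAPs and caspase substrates besides other genes, 44 were listed and 39 tested. From limma, 0 were called, beside 0.0634% of all genes tested, and 0 were at an unadjusted p under 0.05, beside 3.61%, in either direction. Their median log2 fold change was -0.01. Groups did not overlap for 2 of the 39, both lower in AS-tDR-007333 libraries, beside 8.76% of all genes tested.

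The smallest p of this wider list belonged to BIRC5, which encodes survivin, a mitotic IAP family member. It was at 2.51, 3.13 and 4.59 FPKM in AS-tDR-007333 libraries and at 4.37, 4.06 and 4.31 FPKM in NC libraries (log2 fold change -0.28, standard error 0.17, limma unadjusted p = 0.141 and adjusted p = 0.9996). It was -0.46 without AS-tDR-007333 replicate 3 (limma unadjusted p = 0.00362 and adjusted p = 0.8504) and -0.13 without AS-tDR-007333 replicate 1. BNIP3L, a mitochondrial BH3-like protein that acts in mitophagy, was at 14.6, 31.5 and 32.1 FPKM in AS-tDR-007333 libraries and at 33.5, 35.2 and 33.3 FPKM in NC libraries (log2 fold change -0.45, standard error 0.28, limma adjusted p = 0.9996). AS-tDR-007333 replicate 1 alone was far below the rest, and without it the log2 fold change was -0.09. CASP14, a caspase of epidermal differentiation rather than apoptosis, was at 28.98, 27.9 and 25.1 FPKM in AS-tDR-007333 libraries and at 29.6, 27.6 and 32.5 FPKM in NC libraries (log2 fold change -0.13, standard error 0.08, limma adjusted p = 0.9996). For CASP14 it was -0.07 without AS-tDR-007333 replicate 3 and -0.06 without NC replicate 3.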

How the data were processed

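The authors deposited 1 table of FPKM values for protein-coding genes in 6 libraries. According to the methods, KAPA stranded libraries were sequenced on a HiSeq instrument, and StringTie, HISAT2 (GRCh37) and Ballgown were used. The processing notes of the submitters list HISAT2 2.0.5 and featureCounts 1.5.0-p3. FPKM was scaled to library size by the authors, so a shift in abundant genes moves the others. The table sums to 197324 to 202921 FPKM per library and gives no counts, so depth and counting error are unknown.

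Here log2(FPKM + 1) was fitted with limma 3.58.1 in R 4.3.3 (moderated variances, mean-variance trend) over the 11042 genes averaging 1 FPKM or more, with Benjamini-Hochberg adjustment over all of them. Single genes also had an exact two-sided permutation test. Tests are given for the 10 members with the smallest p, for members at separated levels and for genes of a wider list among the 4 with the smallest p, of which 1 is not reported here. Members and lists were chosen with earlier results of these data known. The fit was tested on simulated data. Transcript annotation came from GENCODE release 44 on GRCh37, whereas the annotation release behind the table is unknown here. Alternatives were another pseudocount (0.1), no filter, a filter at 5 FPKM, median-of-ratios rescaling, a Ballgown-style model, a replicate block, each library left out, and other definitions of separated levels.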

Additional observations from a re-analysis of the deposited data

How the results depend on the processing

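No member was called under any alternative, with a lowest adjusted p of 0.399 (MCL1, Ballgown-style model). Members at an unadjusted p under 0.05 numbered 0 in limma, 3 in the Ballgown-style model and 0 to 2 without any 1 library (2 without NC replicate 1 or NC replicate 2), beside 8.44% of all genes tested in the Ballgown-style model and 3.21% to 6.79% without any 1 library. Members whose groups did not overlap numbered 4, and 5 to 8 without any 1 library, where 16.4% to 25.6% of all genes tested did not overlap. Over all genes, 7 were called, but 0 in the Ballgown-style model, 1 with the replicate block and 1 to 18 without any 1 library. Estimates changed sign in the Ballgown-style model for BAD (-0.051), BID (-0.028), BCL2L11 (-0.22), BCL2L2 (1.45) and CASP10 (0.27). Without any 1 library, they ranged from -0.38 to 0.62 for BCL2L11, from -0.84 to 0.72 for BCL2L2, from -0.0045 to 0.22 for BID and from -0.42 to 0.42 for CASP10. The cause was not tested. PMAIP1 met a definition of separated levels with a gap of 2 times the range, and FAS one by the means of the levels, which was added after the data were seen. The replicate block changed no call of a member. Deviations of libraries with the same number correlated at -0.0134, 0.0106 and -0.0054, and no source says that a number marks a shared batch. With 3 libraries a group and unknown depth, differences within the given intervals remain possible, and no detection limit was computed.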
